A study of Mus musculus with 24 samples.

Results

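S100a8, S100a9, Cxcr2 and Il1r2, 4 genes associated with neutrophils, are described here out of 750 genes measured in 24 samples of mouse mammary tumour tissue. They were chosen by name after their values in earlier comparisons of these data had been seen. The values that chose them were the differences between inflamed and desert tumours in well-counted libraries. Those differences are therefore given as a description, with no test. Tests are given for other contrasts, which use the same libraries and overlap with class, so they are not independent of the choice.

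The tissue came from mammary tumour-derived transplants grown in BALB/c hosts, and total RNA was read by NanoString barcode counting, in which each labelled probe bound to an RNA is counted without amplification. The labels give each sample an immune infiltrate class: 13 samples were inflamed, 4 were excluded and 7 were desert. By general usage, lymphocytes sit within the tumour in the inflamed class, stay at its edge in the excluded class and are scarce in the desert class. How a sample received its class is not stated in the labels. The first letter of a sample code stands for the origin of the tumour, per the labels, and the letters are A (5 samples), C (6), F (2), G (4), H (4) and L (3). After the letter, 5 codes carry a 0 and 19 carry F2, and the labels explain neither form. All groups share the BALB/c host. The sources used here do not give the genotype of the donor tumours, the age of the hosts or any treatment. The classes were not spread evenly over the letters, since H was inflamed throughout, F desert throughout, and C held only excluded and desert samples. Several samples carry the same code number and may not be separate tumours: inflamed replicates 3 and 4, excluded replicates 2 and 3, and desert replicates 3, 4 and 6. The p values below therefore measure the spread between these samples, which may be partly technical.

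Neutrophils are short-lived granulocytes that leave the blood for inflamed tissue and tumours. S100A8 and S100A9 are small calcium-binding proteins that pair to form calprotectin, which fills much of the neutrophil cytoplasm, binds metal ions and, once released, signals to other cells through Toll-like receptor 4. CXCR2 is the receptor through which neutrophils follow the chemokines CXCL1, CXCL2, CXCL3 and CXCL5. IL1R2 is a decoy receptor that binds interleukin-1 without passing on a signal, and it is carried by neutrophils and some other cells. In tumours, cells with these genes are counted among neutrophils or granulocytic myeloid-derived suppressor cells, and monocytes also make S100A8 and S100A9.

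S100a8 and S100a9 are neighbours on mouse chromosome 3 and are the closest pair among the 4 genes in these data, so the sequences around their start sites are shown. In GRCm38, S100a8 lies at chr3:90669071-90670034 on the plus strand and S100a9 at chr3:90692630-90695721 on the minus strand. The genes are transcribed towards each other, with 22595 bases between them. Cxcr2 and Il1r2 lie on chromosome 1. Each window below comes from RefSeq for GRCm38 and runs 5′ to 3′ on the strand of its gene, with the annotated start at base 251. The S100a8 window is chr3:90668821-90669120 and the S100a9 window is chr3:90695672-90695971. Capitals mark matches on either strand to letters for 3 motifs: TTNNGNAA for C/EBP, a family of factors that drives granulocyte genes, GAGGAA for PU.1, a factor of myeloid cells, and TATAAA for the TATA box.
S100a8: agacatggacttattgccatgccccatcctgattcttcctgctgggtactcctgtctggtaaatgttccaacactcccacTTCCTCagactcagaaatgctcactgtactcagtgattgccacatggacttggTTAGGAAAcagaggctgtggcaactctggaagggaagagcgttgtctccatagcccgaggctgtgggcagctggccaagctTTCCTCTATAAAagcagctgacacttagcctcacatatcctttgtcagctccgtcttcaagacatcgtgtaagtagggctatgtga
S100a9: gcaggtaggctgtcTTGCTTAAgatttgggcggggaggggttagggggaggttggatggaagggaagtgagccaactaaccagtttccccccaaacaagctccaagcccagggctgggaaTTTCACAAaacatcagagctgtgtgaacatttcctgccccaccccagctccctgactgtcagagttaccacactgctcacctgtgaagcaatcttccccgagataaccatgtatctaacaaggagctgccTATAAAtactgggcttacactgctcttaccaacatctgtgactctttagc
The S100a8 window held 1 C/EBP match at position -117 from the annotated start, 1 TATA match at -30 and 2 PU.1 matches at -170 and -36, the second of which adjoins the TATA match. The S100a9 window held 2 C/EBP matches, at -236 and -130, and a TATA match that begins on the annotated start itself. The C/EBP letters are loose and occurred in 40.7% of 32851 such windows of mouse genes, the PU.1 letters in 28.3% and the TATA letters in 13.6%. The Cxcr2 window held 2 PU.1 matches and no match to the other motifs, and the Il1r2 window held no match to any of the 3. The Il1r2 window, chr1:40085843-40086142, lies inside the listed span of the gene, which begins at 40084692, so it does not cover the start of that span. A match describes letters only, and no binding was measured in these samples.

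Depth set what could be read. Whole barcode counts were recovered from the values. In 16 libraries the total count was 107677 to 1110314, and these are called deep. They comprise 8 inflamed, 3 excluded and 5 desert samples. In the other 8 libraries, called shallow, it was 5262 to 46603. Each library has a detection limit, the mean plus 2 SD of the log2 values of 75 background genes, which lay at 1.67 to 4.32 on the log2 scale of the values in deep libraries and at 5.14 to 8.40 in shallow ones. A level below is a log2 value of a normalised barcode count. Levels are compared between libraries for 1 gene and not between genes, since probes differ. S100a8 and S100a9 exceeded the limit in 16 of 16 deep libraries, Il1r2 in 14 and Cxcr2 in 10. In the 8 shallow libraries, S100a8 and Il1r2 exceeded it in 3, S100a9 in 2 and Cxcr2 in 0. Levels in the classes and letters are therefore given for deep libraries, and the shallow ones are described at the end.

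The labelled tissue and its leukocytes were checked against marker genes. Of 16 epithelial markers, 4 were measured. Epcam, an epithelial adhesion gene, stood at 10.10 and 10.21 in inflamed replicates 3 and 4 and at 10.96 in excluded replicate 1, the 3 deep libraries of letter A. Elsewhere it stood between 1.05 and 4.39, and it exceeded the limit in 7 of 16 deep libraries. Ly6g, which defines neutrophils in the mouse, exceeded the limit in only 2 of 16, inflamed replicate 11 (3.53) and excluded replicate 1 (2.67). Csf3r, the receptor for granulocyte colony-stimulating factor, exceeded it in 16 of 16. The pan-leukocyte genes Ptprc (CD45) and Itgb2 did so as well.

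Among the calprotectin genes, S100a8 was low in inflamed, intermediate in excluded and high in desert tumours. The 8 deep inflamed libraries ran from 5.33 through a median of 6.67 to 9.27. The excluded libraries, replicates 1 to 3, stood at 9.39, 8.33 and 8.60. The desert libraries, replicates 1, 2, 5, 6 and 7, stood at 9.61, 10.25, 10.33, 10.91 and 9.50. All 8 inflamed values lay below all 5 desert values, an order that 0.267% of the 750 genes showed. That is 2 genes, and both are members of the set of 4, S100a8 and Il1r2. Since this contrast chose the genes, nothing follows from that share. The means were 6.93 ± 1.45 in inflamed (SD, n = 8), 8.77 ± 0.55 in excluded (n = 3) and 10.12 ± 0.58 in desert tumours (n = 5). Inflamed differed from desert tumours by -3.19 (SE 0.61), which is 9.15-fold lower. The inflamed and excluded values overlapped: inflamed replicate 11, at 9.27, exceeded 2 of the 3 excluded libraries. All 3 excluded values lay below all 5 desert values, as in 1.87% of genes, but by little. Excluded replicate 1 stood at 9.39 (95% Poisson interval of the count, on the log2 scale, 9.34 to 9.43) and desert replicate 7 at 9.50 (9.37 to 9.62). Such intervals cover counting error only. In tissue RNA, fewer neutrophils, less RNA per neutrophil and a change in other cells that make S100a8, such as monocytes, cannot be told apart.

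S100a9, the partner of S100a8, had the same order of class means, with a wider spread in inflamed and desert tumours. The inflamed libraries ran from 3.92 through a median of 6.45 to 10.09. The excluded libraries, replicates 1 to 3, stood at 9.40, 8.45 and 8.67, and the desert libraries, replicates 1, 2, 5, 6 and 7, at 9.37, 10.23, 11.004, 11.51 and 9.28. The inflamed range reached into the desert range through 1 library, inflamed replicate 11, at 10.09. Excluded replicate 1, at 9.40, also lay above desert replicates 1 and 7. The means were 6.74 ± 2.11 in inflamed (SD, n = 8), 8.84 ± 0.50 in excluded (n = 3) and 10.28 ± 0.98 in desert tumours (n = 5), and inflamed differed from desert tumours by -3.54 (SE 0.86), 11.6-fold lower.

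Cxcr2, the chemokine receptor, was near the limit of detection in most inflamed tumours. It exceeded the limit in 2 of 8 inflamed libraries, replicates 2 (4.15, from 114 counts) and 11 (4.97, from 38 counts), and in all 3 excluded and all 5 desert libraries. The inflamed values ran from 1.89 through a median of 3.11 to 4.97. The excluded values, replicates 1 to 3, were 4.91, 4.65 and 4.67, and the desert values, replicates 1, 2, 5, 6 and 7, were 4.75, 6.14, 4.99, 3.44 and 5.01. Desert replicate 6 had the lowest desert value of Cxcr2 while it had the highest of S100a8 and S100a9. Its 3.44 rests on 23 counts, with an interval of 2.78 to 4.03. The means were 3.18 ± 1.04 in inflamed (SD, n = 8), 4.74 ± 0.14 in excluded (n = 3) and 4.87 ± 0.96 in desert tumours (n = 5). Inflamed differed from desert tumours by -1.69 (SE 0.51), 3.22-fold lower, and excluded from desert tumours by -0.12 (SE 0.66). With values under the limit raised to it, the inflamed minus desert difference was -1.28.

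Il1r2, the decoy receptor, spanned the narrowest range of the 4 within the desert class. The inflamed values ran from 2.84 through a median of 4.73 to 5.17, and inflamed replicates 3 and 4, at 2.84 and 3.07, were under their limits. The excluded values, replicates 1 to 3, were 4.95, 5.34 and 5.33, and the desert values, replicates 1, 2, 5, 6 and 7, were 5.52, 6.04, 6.08, 5.56 and 5.74. All 8 inflamed values lay below all 5 desert values, an order that 0.267% of the 750 genes showed. Since this contrast chose the genes, nothing follows from that share. All 3 excluded values also lay below all 5 desert values, as in 1.87% of genes. The gap from inflamed to desert values was small beside the counting error. Inflamed replicate 10 at 5.17 had an interval of 4.75 to 5.56 and desert replicate 1 at 5.52 one of 5.34 to 5.69. The means were 4.30 ± 0.96 in inflamed (SD, n = 8), 5.21 ± 0.23 in excluded (n = 3) and 5.79 ± 0.26 in desert tumours (n = 5), and inflamed differed from desert tumours by -1.49 (SE 0.42), 2.80-fold lower.

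**Figure D1:**
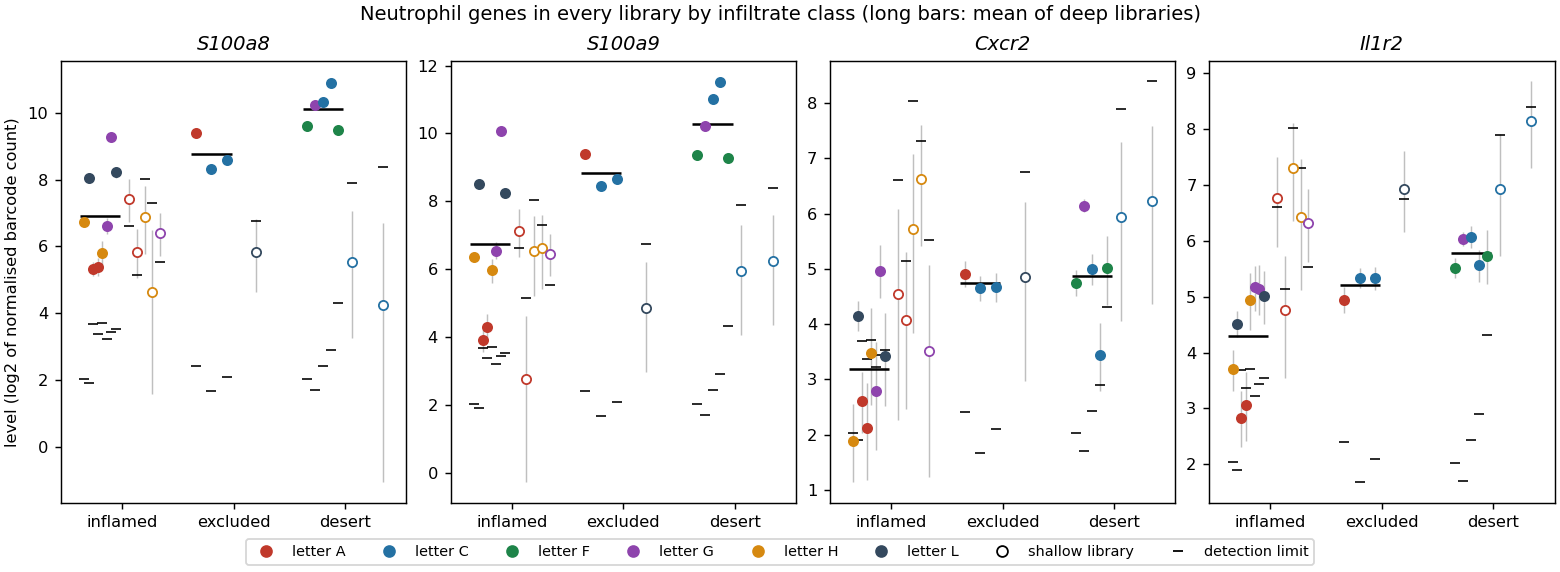
Level of each gene (y axis, log2 of the normalised barcode count, scaled separately per gene) in all 24 libraries by infiltrate class, with colours for the origin letter, filled points for deep and open points for shallow libraries. Grey lines are 95% Poisson intervals of the count, short dashes the detection limit of each library and long bars the mean of the deep libraries. Deep inflamed points of S100a8 lie between 5.33 and 9.27 and deep desert points between 9.50 and 10.91.

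The other class contrasts of these libraries gave smaller differences. Inflamed minus excluded was -1.85 (SE 0.72) for S100a8, -2.10 (SE 1.02) for S100a9, -1.56 (SE 0.61) for Cxcr2 and -0.91 (SE 0.50) for Il1r2. In 0 of the 4 genes did all inflamed values lie below all excluded values, an order that 2.27% of the 750 genes showed. Excluded minus desert was -1.35 (SE 0.78) for S100a8, -1.44 (SE 1.10) for S100a9 and -0.58 (SE 0.54) for Il1r2. These contrasts share libraries with inflamed against desert and are given with no p.

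Part of the inflamed minus desert difference lay with a pair of inflamed libraries. Inflamed replicates 3 and 4, of letter A and 1 code number, had the lowest inflamed values of S100a8 (5.33 and 5.39), S100a9 (3.92 and 4.30) and Il1r2. Their counts resembled each other more than those of other pairs of deep libraries of a shared letter and class, with a chi-square of 2.20 per degree of freedom against 8.12 to 218. This measure grows with depth. The totals were 449997 and 283459 here and 976271 and 718971 in excluded replicates 2 and 3, the pair with 8.12. Desert replicates 5 and 6, with totals of 447375 and 348430, had 41.4. In inflamed replicates 3 and 4 the summed linear level of 9 other neutrophil markers was 109.4 to 122.2, against 241.8 to 2265 in the other 6 deep inflamed libraries. That of 11 macrophage and monocyte markers was 1115 to 1178, against 2913 to 18505, and that of Ptprc and Itgb2 109.8 to 111.2, against 168.9 to 1221. With both libraries left out, inflamed minus desert was -2.67 for S100a8, -2.66 for S100a9, -1.41 for Cxcr2 and -1.04 for Il1r2. The part of leukocyte content in the differences was not tested.

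The other 6 inflamed libraries differed in their leukocyte markers. Inflamed replicates 1, 8 and 10, of letters H and G, had summed macrophage levels of 15202 to 18505, above the 2783 to 8293 of the desert libraries, and S100a8 at 6.73, 5.81 and 6.61. Inflamed replicate 2 had a sum of 10728 with S100a8 at 8.05, and inflamed replicates 11 and 13 had sums of 3295 and 2913 with S100a8 at 9.27 and 8.22. Ptprc itself averaged 7.66 ± 1.55 in inflamed (SD, n = 8), 7.99 ± 0.24 in excluded (n = 3) and 7.69 ± 0.47 in desert tumours (n = 5), an inflamed minus desert difference of -0.03 (SE 0.62). Set against the mean of Ptprc and Itgb2 in each library, S100a8 stood at -0.61 ± 2.01 in inflamed (SD, n = 8), 1.09 ± 0.84 in excluded (n = 3) and 2.80 ± 0.66 in desert tumours (n = 5). On this scale, chosen after the data were seen, inflamed minus desert was -3.41 for S100a8, -3.75 for S100a9, -1.90 for Cxcr2 and -1.71 for Il1r2. The inflamed and desert values of S100a8 and Il1r2 overlapped on it, although their unscaled levels did not. The highest inflamed values were 2.35 for S100a8 and -1.35 for Il1r2, against lowest desert values of 1.96 and -1.81. On this scale limma called 0 of the 750 genes between inflamed and desert tumours, against 2 on the deposited scale. Since this contrast chose the 4 genes, neither count is a test of them, and the part of leukocyte content was not tested.

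Within the origin letters that hold deep libraries of more than 1 class, the order of classes could be read without a change of origin. In letters A and G the inflamed libraries carry F2 codes and the excluded or desert library a 0 code, so class and code form cannot be told apart there. In letter A, both inflamed libraries lay below the excluded library for all 4 genes. S100a8 was 5.33 and 5.39 in inflamed replicates 3 and 4 against 9.39 in excluded replicate 1, and Il1r2 was 2.84 and 3.07 against 4.95. That order held for 60.4% of the 750 genes, so it sets these 4 little apart. In letter C, excluded libraries lay below desert libraries for S100a8, S100a9 and Il1r2, an order that 31.1% of genes showed. S100a9 there was 8.45 and 8.67 in excluded replicates 2 and 3 against 11.004 and 11.51 in desert replicates 5 and 6. Cxcr2 overlapped in letter C, with 4.65 and 4.67 in the excluded pair against 4.99 and 3.44 in the desert pair. In letter G, both inflamed libraries lay below desert replicate 2 for all 4 genes, against 24.7% of genes. All 3 orders together held for 3.2% of the 750 genes, 24 in number, among them S100a8, S100a9 and Il1r2. Each order rests on 3 or 4 libraries, most of which also entered the contrast that chose the genes.

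**Figure D2:**
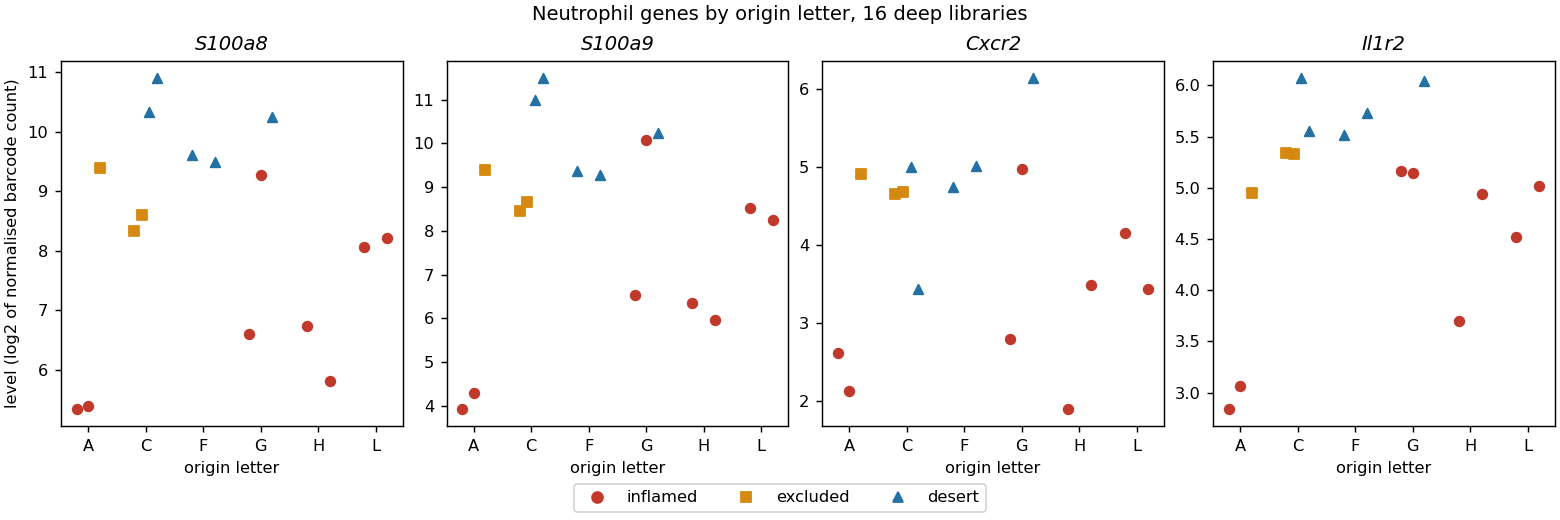
Level of each gene (y axis, log2 of the normalised barcode count) in the 16 deep libraries by origin letter, with circles for inflamed, squares for excluded and triangles for desert samples. In letter G the inflamed circles of S100a8 lie at 6.61 and 9.27 and the desert triangle at 10.25.

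Origin letters were tested on the same 16 libraries that chose the genes, with H inflamed and F desert throughout, so this test is not independent of that choice. S100a8 had the lowest mean in letter H (6.27 ± 0.65, SD, n = 2), then A (6.70 ± 2.32, n = 3), L (8.14 ± 0.11, n = 2), G (8.71 ± 1.89, n = 3), C (9.54 ± 1.27, n = 4) and F (9.55 ± 0.08, n = 2), and each letter overlapped the next in this order. S100a9 ran from A (5.87 ± 3.06, n = 3) and H (6.16 ± 0.28, n = 2) through L (8.38 ± 0.19, n = 2), G (8.95 ± 2.09, n = 3) and F (9.32 ± 0.06, n = 2) to C (9.91 ± 1.57, n = 4), and of these neighbours only H and L did not overlap. Cxcr2 ran from H (2.69 ± 1.13, n = 2) to F (4.88 ± 0.19, n = 2), with overlap between all neighbours. Il1r2 ran from A (3.62 ± 1.16, n = 3), H (4.32 ± 0.88, n = 2) and L (4.77 ± 0.35, n = 2) to G (5.45 ± 0.51, n = 3), C (5.58 ± 0.35, n = 4) and F (5.63 ± 0.15, n = 2), and of these neighbours only L and G did not overlap.

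By limma's F test over the letters, 0 of the 4 genes passed an adjusted p of 0.05, against 0.4% of the 750 genes. The adjusted p was 0.223 for Il1r2, 0.264 for S100a9, 0.283 for S100a8 and 0.531 for Cxcr2, and Il1r2 and S100a9 had an unadjusted p under 0.05 (0.0194 and 0.0474). With voom weights on the recovered counts the number was 0 as well. Excluded replicate 1, which lies far above the other 2 libraries of letter A in all 4 genes, decided this result. Without it, letters passed for Il1r2 (adjusted p = 0.0105), S100a9 (0.0174) and S100a8 (0.0327), when 149 of the 750 genes passed.

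With class in the same fit, letters passed for 0 of the 4 genes, against 9.07% of the 750 genes. The adjusted p was 0.118 for Il1r2, 0.226 for S100a9, 0.302 for S100a8 and 0.311 for Cxcr2, and Il1r2 alone had an unadjusted p under 0.05 (0.0291). Single libraries decided this result too. S100a9 passed without excluded replicate 1 (adjusted p = 0.0255), desert replicate 2 (0.0219) or inflamed replicate 11 (0.0457), and Il1r2 without excluded replicate 1 (0.0445) or desert replicate 2 (0.0413). Many other genes passed in the same fits: of the 750, 164 without excluded replicate 1, 198 without desert replicate 2 and 98 without inflamed replicate 11.

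Pairs of deep libraries with the same letter and class showed how far single libraries differed. The pairs of F, L and H each set a code with 0 against a code with F2, so their gaps hold any difference of code form as well. In letter F, desert replicates 1 and 7 differed by 0.11 in S100a8 and by 0.09 in S100a9. In letter L, inflamed replicates 2 and 13 differed by -0.16 in S100a8 and 0.27 in S100a9. The widest gap was in letter G, where inflamed replicate 11 exceeded inflamed replicate 10 by 2.66 in S100a8 (6.34-fold) and 3.54 in S100a9 (11.6-fold). Cxcr2 stood at 4.97 in replicate 11 and was under the limit in replicate 10 (2.79, limit 3.22). Il1r2 differed by -0.02 between the same 2 libraries. In that pair inflamed replicate 11 had a lower summed macrophage level, 3295 against 15202 in replicate 10, and a higher summed level of CXCR2 ligands, 268.6 against 105.1. The part of these in the gap was not tested. In letter H, inflamed replicate 1 exceeded replicate 8 by 0.92 in S100a8 but differed from it by -1.25 in Il1r2, and Cxcr2 was under the limit in both. The class label was the same in each pair, and for S100a9 the gap in letter G was of the size of the difference between inflamed and desert means.

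Samples whose codes carry 0 and those whose codes carry F2 were compared as a further contrast. S100a8 averaged 8.81 ± 1.41 in 0 codes (SD, n = 5) and 8.03 ± 1.97 in F2 codes (n = 11), a difference of 0.78 (SE 0.89). S100a9 averaged 8.78 ± 1.48 in 0 codes and 7.996 ± 2.54 in F2 codes, a difference of 0.78 (SE 1.11). Cxcr2 averaged 4.37 ± 1.56 in 0 codes and 3.83 ± 1.06 in F2 codes, and Il1r2 4.94 ± 0.90 in 0 codes and 4.93 ± 1.03 in F2 codes. By limma, 0 of the 4 genes passed (adjusted p 0.663 to 0.983), also with voom weights, and 0 had an unadjusted p under 0.05. Of the 750 genes, 4.13% passed. With the letter as a covariate the difference was 1.64 for S100a8 (SE 0.68, adjusted p = 0.144) and 1.83 for S100a9 (SE 0.86, adjusted p = 0.202), and neither passed, while 95 of the 750 genes did. In letters A and G this fit sets excluded or desert libraries with 0 against inflamed libraries with F2, so it carries part of the class contrast that chose the genes. The sign for Il1r2 (0.02, SE 0.51) turned under several alternatives.

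S100a8 and S100a9 varied together from library to library. Across the 16 deep libraries their levels had a Pearson r of 0.98, also 0.98 when class means were subtracted, and 0.98 without inflamed replicates 3 and 4. The libraries share letters and code numbers, so r is a description of these libraries and carries no p. The balance of the pair was less uniform. The share of S100a8 in the summed counts of both genes, which depends on the 2 probes and is no ratio of molecules, was 36.2% to 72.7% in inflamed (median 50.3%), 48.0% to 49.8% in excluded (median 48.8%) and 38.6% to 54.1% in desert tumours (median 50.3%).

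The share was compared within the pairs of deep libraries with the same letter and class. In letter A, inflamed replicates 3 and 4 had shares of 72.7% (95% exact Clopper-Pearson interval 66.9 to 78.0) and 68.0% (60.4 to 74.999), while excluded replicate 1 of the same letter had 49.8% (48.6 to 51.0). The S100a9 values of that inflamed pair, 3.92 and 4.30, lay close to their detection limits of 3.69 and 3.37. In letter C, desert replicates 5 and 6 had shares of 38.6% (37.7 to 39.5) and 39.8% (38.8 to 40.7), below the 48.0% and 48.8% of excluded replicates 2 and 3. In letter F, desert replicates 1 and 7 had 54.1% and 53.8%. The inflamed pairs of the other letters had 56.3% (53.1 to 59.6) and 47.2% (38.3 to 56.3) in H, 42.1% and 49.5% in L and 51.1% and 36.2% in G. The 3 lowest shares were those of inflamed replicate 11 and desert replicates 5 and 6, libraries with S100a9 at 10.09, 11.004 and 11.51. Desert replicate 2, with S100a9 at 10.23, had an even share of 50.3%. The share was not tested between groups.

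**Figure D3:**
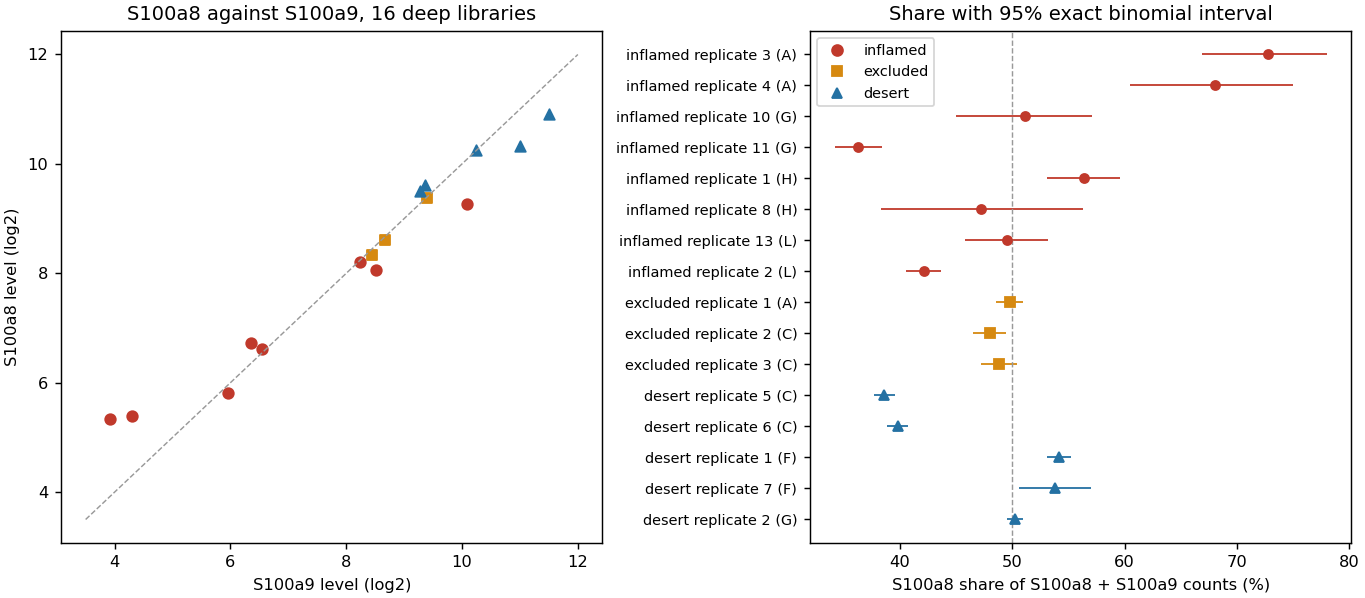
Left, level of S100a8 (y axis, log2) against S100a9 (x axis, log2) in the 16 deep libraries, with a dashed line of equal levels. Right, S100a8 share of the S100a8 and S100a9 counts (x axis, percent) per library with 95% exact binomial intervals and a dashed line at an equal split, where inflamed replicates 3 and 4 lie at 72.7% and 68.0%.

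Cxcr2 and Il1r2 followed the calprotectin genes less tightly. Over the 16 deep libraries r was 0.77 between S100a8 and Cxcr2, 0.82 between S100a8 and Il1r2, 0.76 between S100a9 and Cxcr2, 0.86 between S100a9 and Il1r2 and 0.79 between Cxcr2 and Il1r2. With class means subtracted these were 0.54, 0.59, 0.55, 0.70 and 0.60. Without inflamed replicates 3 and 4 they were 0.67, 0.69, 0.65, 0.67 and 0.73 in the same order, so part of the likeness rested on that pair. The genes were chosen together for 1 class contrast, which adds to the first set of values, and Cxcr2 values near the limit carry counting error.

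The expressed genes whose levels were most like each of the 4 over the 16 deep libraries were few and recurred. Nfil3, a transcription factor of the basic leucine zipper type, was among the 5 most like S100a8 (r = 0.91), S100a9 (r = 0.95) and Il1r2 (r = 0.95), against medians over all 568 expressed genes of 0.04, 0.07 and 0.18. Nfil3 averaged 6.60 ± 1.00 in inflamed (SD, n = 8), 7.30 ± 0.08 in excluded (n = 3) and 8.07 ± 0.19 in desert tumours (n = 5). With class means subtracted, its r was 0.84, 0.91 and 0.90. S100a8 and S100a9 shared Ldha, lactate dehydrogenase A (r = 0.86 and 0.90). S100a9 and Il1r2 shared Ptgs2, cyclooxygenase-2 (r = 0.90 and 0.90), which averaged 6.49 ± 3.18 in inflamed, 8.80 ± 0.69 in excluded and 10.17 ± 1.41 in desert tumours.

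S100a8 and Cxcr2 shared Hdc, the enzyme that makes histamine (r = 0.87 and 0.82), which lay at 2.56 ± 0.75 in inflamed, 3.82 ± 0.27 in excluded and 4.85 ± 0.88 in desert tumours and exceeded the limit in 10 of 16 deep libraries. S100a8 also had Pik3ca, a catalytic subunit of phosphoinositide 3-kinase (r = 0.86), and S100a9 had Nfkbia, an inhibitor of NF-κB (r = 0.88). Cxcr2 further had Stc1, a secreted glycoprotein (r = 0.81), the tankyrase gene Tnks (r = 0.80) and Il1r2 itself (r = 0.79). The 5 most like Il1r2 further held Traf1, an adaptor of tumour necrosis factor receptors (r = 0.89), Tnfrsf9, the co-stimulatory receptor 4-1BB (r = 0.88), and Hdac5, a histone deacetylase (r = 0.88). Without inflamed replicates 3 and 4, r with Il1r2 was 0.84 for Nfil3, 0.70 for Ptgs2, 0.65 for Traf1, 0.77 for Tnfrsf9 and 0.66 for Hdac5. Ranked on values with class means subtracted, 3 of the 5 remained for S100a8, 3 for S100a9, 4 for Cxcr2 and 3 for Il1r2. The 2 lost for S100a8 were Hdc, whose r fell to 0.60 (rank 55), and Pik3ca, at 0.62 (rank 41).

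Further genes of the neutrophil and its pathways were read in the same inflamed minus desert contrast of deep libraries, in which limma called 2 of the 750 genes (0.267%), both lower in inflamed tumours. Over all 750 genes, 311 were lower and 439 higher in inflamed tumours, with a median difference of 0.12. Over the 568 expressed genes, 274 were lower and 294 higher, with a median of 0.04, so genes that were not expressed were mostly higher. Of 25 other neutrophil markers listed, 9 were measured and 8 expressed. Of the 9, 6 were lower and 3 higher, 0 passed, and the median was -0.09, so this list as a whole stood near the median of all genes. Csf3r averaged 4.95 ± 0.83 in inflamed (SD, n = 8), 5.81 ± 0.32 in excluded (n = 3) and 5.46 ± 0.79 in desert tumours (n = 5), an inflamed minus desert difference of -0.51 (SE 0.44). Mmp9, a gelatinase stored in neutrophil granules and also made by macrophages, averaged 5.79 ± 1.98 in inflamed, 7.54 ± 0.69 in excluded and 7.39 ± 1.26 in desert tumours, a difference of -1.59 (SE 0.85, adjusted p = 0.539). Itgam, the CD11b integrin of neutrophils and macrophages, differed by -0.01 (SE 0.88) and Fcgr4, an Fc receptor, by 0.01 (SE 0.83). The summed level of the 9 genes was 109.4 to 2265 in inflamed, 523.9 to 884.8 in excluded and 534.5 to 1054 in desert libraries, so the inflamed range enclosed the others. A linear sum is weighted to the genes of highest level, and Itgam and Fcgr4 reached 9.57 and 10.17 in inflamed libraries. The highest sum was that of inflamed replicate 8, which also had the highest macrophage sum, 18505. The sum therefore does not measure neutrophils alone.

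The ligands of CXCR2 lay lower in inflamed tumours without passing the test. Of 6 listed, 5 were measured, all 5 were lower, 0 passed and the median was -1.78. Cxcl1 averaged 5.36 ± 1.44 in inflamed (SD, n = 8), 5.74 ± 0.05 in excluded (n = 3) and 7.63 ± 1.56 in desert tumours (n = 5), a difference of -2.27 (SE 0.72, adjusted p = 0.315). Cxcl5 averaged 5.37 ± 2.00 in inflamed, 7.57 ± 0.30 in excluded and 7.15 ± 0.80 in desert tumours, a difference of -1.78 (SE 0.80, adjusted p = 0.441). Cxcl3 differed by -1.31 (SE 0.70, adjusted p = 0.539), and its lowest class mean was the excluded one, at 2.39 ± 0.87. Excluded tumours had Cxcl5 near the desert level and Cxcl1 near the inflamed level. Across the 16 deep libraries S100a8 had an r of 0.84 with Cxcl1, 0.78 with Cxcl5, 0.66 with Cxcl2, 0.50 with Cxcl3 and -0.21 with Cxcl15, which was above the limit in 0 of 16.

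Around interleukin-1, the ligand that IL1R2 binds, 7 of 11 listed genes were measured, with 4 lower, 3 higher, 0 passing and a median of -0.06. Il1b, interleukin-1 beta, averaged 5.91 ± 1.51 in inflamed (SD, n = 8), 6.06 ± 0.99 in excluded (n = 3) and 7.61 ± 0.81 in desert tumours (n = 5), a difference of -1.70 (SE 0.67, adjusted p = 0.401). Il1rn, the receptor antagonist, differed by -0.32 (SE 0.44) and Casp1, the protease that matures interleukin-1 beta, by 0.87 (SE 0.69).

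The receptors of calprotectin and the NADPH oxidase gave 6 of 10 listed genes, with 4 lower, 2 higher, 0 passing and a median of -0.33. Among them Cd14, a co-receptor of Toll-like receptor 4, differed by -0.76 (SE 0.51), its partner Ly96 by -0.27 (SE 0.33) and Cybb, the catalytic subunit of the oxidase, by 0.41 (SE 0.74). Granulocyte growth factors and their receptors gave 6 of 9, with 2 lower, 4 higher, 0 passing and a median of 0.42. Only 3 of the 6 were expressed, with 1 of these lower and a median of 0.38.

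**Figure D4:**
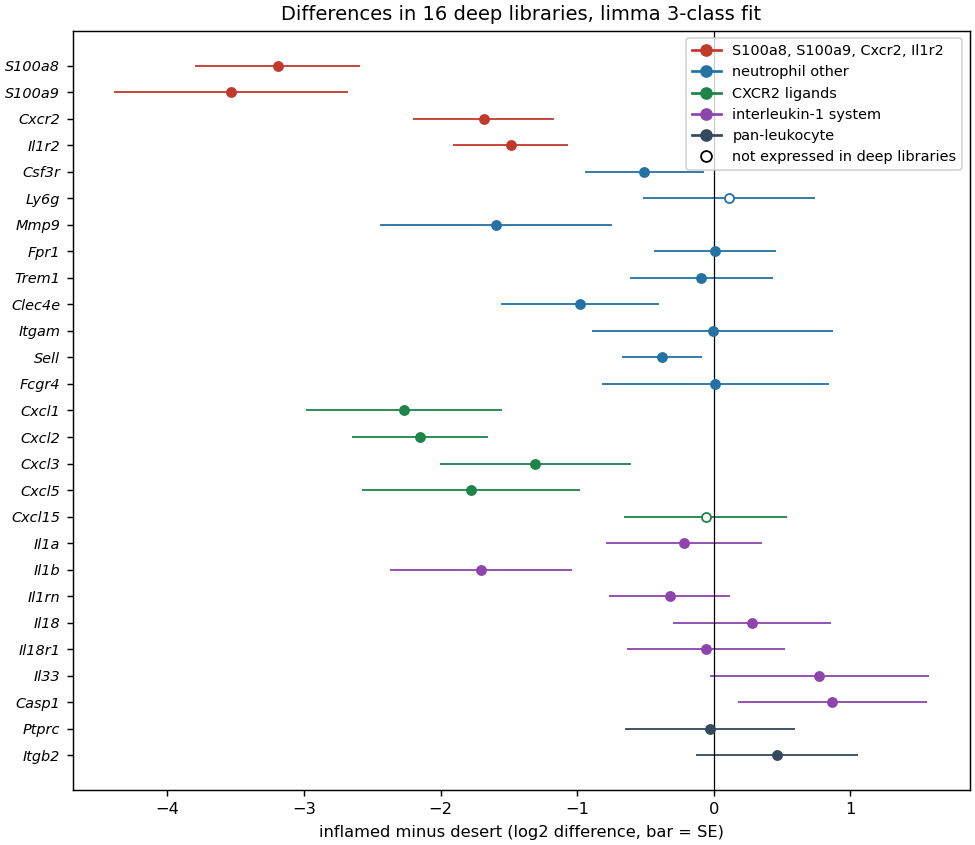
Inflamed minus desert difference (x axis, log2, with bars for the SE) in deep libraries for S100a8, S100a9, Cxcr2 and Il1r2 and for the measured genes of 4 lists, with open points for genes not expressed in deep libraries. The 4 genes lie between -3.54 and -1.49, Cxcl1 at -2.27 and Ptprc at -0.03.

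Lists for other cells that the tissue could hold were read in the same contrast. Macrophage and monocyte markers, of which 11 of 14 were measured, had 6 lower and 5 higher with a median of -0.02. T cell markers had 14 of 14 higher and a median of 1.01, with 4 of the 14 expressed and 0 passing. The 4 expressed ones had a median of 0.92. Genes that were not expressed were mostly higher over all 750 genes, so counts of T cell, B cell and epithelial markers carry that background. Mast cell, basophil and eosinophil markers had 5 of 7 lower, a median of -0.61 and 1 that passed, Hdc (-2.30, SE 0.43). That call was lost, with 0 of the 750 genes called, with all 24 libraries, with code numbers averaged and with inflamed replicates 3 and 4 left out together. The same held when 1 of inflamed replicates 1, 8 and 10 or desert replicates 2, 5, 6 and 7 was left out. Hdc was also not called with library medians aligned or with values under the limit raised to it. Dendritic cell markers had 3 of 3 higher with a median of 1.01, and B cell markers 4 of 6 higher with a median of 0.28 and 0 expressed. Epithelial markers had 4 of 4 higher with a median of 2.19, but 1 of the 4 was expressed (0.97). Their summed level was 1713 to 1875 in inflamed replicates 3 and 4 and 32.3 to 106.3 in the other 6 inflamed libraries, against 39.3 to 68.4 in desert libraries. Endothelial markers had 3 of 5 lower with a median of -0.00, fibroblast and stroma markers 2 of 3 higher with a median of 0.66, and the pan-leukocyte genes 1 lower and 1 higher with a median of 0.22. Except for Hdc, 0 genes of these lists passed.

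The shallow libraries were the samples not used in the choice, and they did not show the order of the deep ones in S100a8. In the 5 shallow inflamed libraries S100a8 stood at 4.62 to 7.41, from 2 to 22 counts, and in the 2 shallow desert libraries, replicates 3 and 4, at 5.52 and 4.23, from 3 counts and 1 count. The desert values lay under limits of 7.90 and 8.40, so a level at the deep inflamed mean of 6.93 could not be detected there, while one at the deep desert mean of 10.12 lies above those limits. These 2 libraries had 34 and 26 genes above the limit, while S100a8 stood at 10.91 in the deep desert replicate 6, which carries their code number. Inflamed minus desert was 1.36 for S100a8, -0.19 for S100a9, -1.19 for Cxcr2 and -1.22 for Il1r2 (two-sided exact permutation p = 0.19, 0.667, 0.381 and 0.19, n = 5 and 2). With 21 possible splits the smallest p that this design allows is 0.0952, so it could not pass 0.05. The counts of desert replicates 3 and 4 differed by less than the sampling noise (p = 0.545 by a chi-square test of 449.9 with 454 degrees of freedom), and counted as 1 sample they leave a smallest p of 0.333. S100a8 and S100a9 exceeded the limit in inflamed replicates 5 (7.41 and 7.12) and 12 (6.39 and 6.45), and S100a8 also in inflamed replicate 6 (5.85). In excluded replicate 4, the single shallow excluded library, Il1r2 stood at 6.93 against a limit of 6.76, and the other 3 genes were under it.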

How the data were processed

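Total RNA of 24 samples was extracted with Trizol and counted by NanoString, per the labels' protocols. The deposited values are on a log2 scale, and each equals log2 of a whole barcode count times 1 factor per library (100.0% whole within 0.001). The sources used here do not give the rule behind the factor or any background subtraction. Of 784 rows, 34 hold no value, which leaves 750 genes, and 744 symbols match RefSeq. A library is deep from a total of 100000 counts, the detection limit uses the 75 genes of lowest mean count in deep libraries, and 568 genes are expressed, exceeding it in at least 8 of 16 deep libraries. The authors' log2 values were fitted as deposited with limma 3.58.1 in R 4.3.3 over 750 genes with Benjamini-Hochberg adjustment and a threshold of 0.05. Shallow libraries were compared by an exact permutation test in Python 3.11.15. The fits were tested on simulated data. Named were the 4 genes, the 5 expressed genes of highest Pearson r with each, and up to 3 expressed genes of highest mean per list. Of the genes this rule takes, 1 is not reported here. Csf3r, Ly6g, Epcam and Ptprc were named after their values were seen. Members, lists and tests were chosen with earlier results of these data known. Alternatives covered scaling, filters, a pseudocount of 10, voom weights (limma), code numbers averaged, the letter as block (statmod 1.5.0) or covariate, and leaving out each library. Desert replicates 3 and 4 entered as 1 sample in an alternative.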

Additional observations from a re-analysis of the deposited data

How the results depend on the processing

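The inflamed minus desert contrast chose the genes, so its stability is a description and no test. Some alternatives, such as expressed genes only or an excluded library left out, cannot move this difference. Inflamed minus desert kept its sign for the 4 genes under all 28 alternatives. It ran from -3.53 to -1.96 for S100a8, -4.01 to -2.66 for S100a9, -2.04 to -1.01 for Cxcr2 and -1.71 to -1.04 for Il1r2, and the value for S100a8 with all 24 libraries was -1.96. Leaving out each library in turn gave -3.53 to -2.97 for S100a8, -4.01 to -3.13 for S100a9, -2.04 to -1.37 for Cxcr2 and -1.61 to -1.28 for Il1r2. The number of the 4 genes called for letters ran from 0 to 3 and for letters given class from 0 to 2 when each library was left out, and was 0 under the other alternatives. Over the alternatives the adjusted p for letters ran from 0.0327 to 0.906 for S100a8, 0.0174 to 0.901 for S100a9, 0.158 to 0.976 for Cxcr2 and 0.0105 to 0.941 for Il1r2, and given class from 0.0590, 0.0219, 0.120 and 0.0413 to 0.945. For 0 minus F2 codes it ran from 0.144 to 0.939, 0.202 to 0.979, 0.326 to 0.975 and 0.418 to 0.990. That difference turned sign for S100a9 without inflamed replicates 3 and 4 together (-0.085), for Cxcr2 with all 24 libraries (-0.036) and for Il1r2 with all 24 libraries (-0.73), library medians aligned (-0.29), quantile normalisation (-0.15), a pseudocount of 10 (-0.015), values under the limit raised to it (-0.090), code numbers averaged (-0.16) or both inflamed replicates left out (-0.42), and ran from -0.26 to 0.33 without each library. Aligning medians moved the median 0 minus F2 difference of all genes to -0.26, against 0.05 as deposited. Shallow inflamed minus desert turned sign for S100a9 with medians aligned (0.59) or quantile normalisation (1.74), ran from -0.49 to 0.60 without each library, and turned for S100a8 with values under the limit raised to it (-1.15). In that last setting both desert values of S100a8 are simply their limits, 7.90 and 8.40, so its sign says nothing about S100a8 levels. The causes of the other turns were not tested. Of all 750 genes, letters called 3, against 0 with all 24 libraries, 5 with medians aligned, 9 after quantile normalisation, 1 among expressed genes, with code numbers averaged or without inflamed replicates 3 and 4 together, and from 1 to 149 without each library, the last without excluded replicate 1. Letters given class called 68, against 0 with all 24 libraries, 104 among expressed genes, 121 with the pseudocount 1 with code numbers averaged and 0 without inflamed replicates 3 and 4 together, and from 1 to 198 without each library, the last without desert replicate 2. The 0 and F2 codes called 31, of which 26 were lower in 0 codes (51 of 54 with medians aligned), against 0 after quantile normalisation, among expressed genes or with the pseudocount, 130 with values raised to the limit, 95 with the letter as covariate and 10 without inflamed replicates 3 and 4 together, and from 0 to 42 without each library. Inflamed and desert tumours called 2, against 0 with all 24 libraries, code numbers averaged or inflamed replicates 3 and 4 left out together, and from 0 to 3 without each library. No paired analysis was possible because replicate numbers only name the samples of a class and pair nothing. All 24 libraries were not run in the permutation test of shallow libraries, which would repeat the contrast that chose the genes, nor voom for letters given class. Depth limits Cxcr2 most, which was above the limit in 2 of 8 deep inflamed libraries.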
